A study of Mus musculus with 21 samples.

Results

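The genes that encode the proteins of the cytosolic ribosome were followed through an array study of transforming growth factor beta 1 (TGF-b1) and of the forkhead transcription factor FoxQ1 in mouse mammary epithelial cells. Members were the genes whose symbol is Rpl or Rps followed by a digit, with Rplp0, Rplp1, Rplp2 and Rpsa, leaving out the Rps6k kinases and symbols marked -ps. Only probe sets that carry a single gene symbol were used, and the probe set with the highest mean signal stood for its gene. This gave 50 of 18193 genes in the NMuMG table and 48 of 12393 genes in the NM18 table. All 48 members of the NM18 table were also measured in NMuMG cells, and Rps16 and Rps19bp1 were measured there alone. A further 31 symbols under the same rule in the NMuMG table and 30 in the NM18 table, among them Rplp1 and Rps27a, had no probe set with a single symbol and were not analysed here.

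NMuMG is an epithelial line from normal mouse mammary gland, and NM18 is a subclone of it. All NMuMG cultures took up 200 µM 4-thiouridine (4sU), a uridine analogue that tags RNA made while it is present, for 2 h, either alone (control) or with 5 ng/ml TGF-b1. Total RNA was hybridised from each treatment, and so was the RNA that a mercury-based column had enriched for 4sU, called newly made RNA here, which gave 4 groups of 3 arrays. NM18 cultures were reverse transfected with 25 nM scrambled (control) siRNA or FoxQ1 siRNA, and TGF-b1 at 5 ng/ml was added after 8 h for 40 h. The 3 groups of 3 arrays were control siRNA alone, the same siRNA plus TGF-b1, and FoxQ1 siRNA plus TGF-b1, all read 48 h after transfection, and FoxQ1 siRNA was not tried without TGF-b1. Array 1 of control siRNA alone has a free-text remark naming TGF-b1, but its title and treatment label do not, and these were followed. The series is titled for an influence of FoxQ1 on epithelial differentiation.

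The cytosolic ribosome is built from a large and a small subunit, each a core of ribosomal RNA with a set of small, mostly basic proteins named Rpl for the large and Rps for the small subunit. The subunit proteins are needed in equal amounts, their messengers are among the most abundant and most stable in growing cells, and their genes are known to be expressed together. Many of these messengers begin with a run of pyrimidines at the cap, the terminal oligopyrimidine (TOP) motif, through which the mTOR kinase and Larp1 set how much of each messenger is translated.

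The bases around the start of the messengers were read from RefSeq promoter sequences on mouse build GRCm38.p6, which held 44 of the 50 members. For each gene a window of 30 bases, from 15 before to 15 after an annotated start, was searched for its longest unbroken run of C and T, and where a gene had several starts the start with the longest run was taken. A run of at least 8 bases was present in 19 of 44 members (43.2%) and in 13.9% of the 27025 genes with a promoter sequence. It spanned the annotated start in 12 of 44 members (27.3%) and in 4.35% of those genes, and in the other 7 members, Rps27l and Rpl19 among them, it lay wholly before or after the start. The windows below belong to members that the results turn on, and capitals mark the longest run of C and T in each. The first group holds members with long runs whose signal was lower in newly made RNA:
Rpl7a: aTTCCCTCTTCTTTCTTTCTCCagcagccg
Rpl35: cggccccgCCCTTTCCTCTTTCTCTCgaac
Rpl14: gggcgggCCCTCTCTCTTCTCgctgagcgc
Rps18: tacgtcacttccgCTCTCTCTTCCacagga
Rps6: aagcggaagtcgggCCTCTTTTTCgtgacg
Rps24: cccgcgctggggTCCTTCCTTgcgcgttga
Rps27l: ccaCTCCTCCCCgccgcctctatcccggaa
The next are the members with the largest falls in newly made RNA, whose windows hold only short runs:
Rpl37a: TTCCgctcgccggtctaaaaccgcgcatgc
Rps15: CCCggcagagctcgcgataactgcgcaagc
The last are members that were not called lower in newly made RNA of control cells:
Rpl12: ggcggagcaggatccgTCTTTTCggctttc
Rps25: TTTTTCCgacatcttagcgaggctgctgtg
Rpl7l1: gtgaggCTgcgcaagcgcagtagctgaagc

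These windows lie at chr2:26910792-26910821 (plus strand) for Rpl7a, chr2:39005117-39005146 (minus) for Rpl35, chr9:120571502-120571531 (plus) for Rpl14, chr17:33955651-33955680 (minus) for Rps18 and chr4:86857353-86857382 (minus) for Rps6. Those of Rps24, Rps27l, Rpl37a and Rps15 are chr14:24490663-24490692, chr9:66946071-66946100, chr1:72711245-72711274 and chr10:80292416-80292445, all on the plus strand. Rpl12 and Rps25 follow at chr2:32961697-32961726 and chr9:44407699-44407728 (plus), and Rpl7l1 at chr17:46782642-46782671 (minus). Each window covers the last bases of the promoter and the first of the transcript. The run was 21 bases in Rpl7a, 18 in Rpl35, 14 in Rpl14 and 2 in Rpl7l1. Of the members with a promoter sequence that were lower in newly made RNA of control cells, 19 of 38 held a run of at least 8 bases, and so did 0 of the 6 that were not. That is a description of few genes with no test, and the split depends on the cutoff of 8 bases and on the chosen probe sets. Rpl12, Rps25 and Rpl39l, which were not called lower, each held a run of 7 bases. The median longest run was 7.5 bases in members called lower and 6 in those that were not. Without probe sets ending in x_at, s_at or a_at, Rpl35, Rps10, Rps18, Rps24 and Rps9, with long runs, were not called lower. Neither were Rpl41 and Rps3, with runs of 3. Among members not called lower, Rps16, Rpl3l and Rpl39l had low mean signals (4.13, 4.53 and 4.60). Another probe set of Rpl7l1 was called lower. The letters CCGGAA, or TTCCGG when read on the opposite strand, occurred in the 250 bases before the start in 21 of 44 members (47.7%) and in 12.2% of all genes.

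The arrays were of the labelled kind of cell. Of 8 epithelial markers, 7 to 8 lay above the median gene in the NMuMG groups and 5 to 6 in the NM18 groups, led by Krt8 and Krt18, against 0 to 2 of 8 fibroblast, 0 to 1 of 8 leukocyte and 0 of 4 endothelial markers. Of 4 muscle and neuron markers 1 lay above it in each NMuMG group, Rbfox3 at 6.74 to 6.86, and 0 in the NM18 groups. Foxq1 itself rose with TGF-b1 in NM18 cells, from 8.26 ± 0.31 to 9.15 ± 0.16 (SD, n = 3; limma adjusted p = 0.00164), and stood at 7.88 ± 0.27 with its siRNA, a fall of 1.27 ± 0.16 (SE; adjusted p = 0.000291). No arrays were identical, and arrays of a group correlated at 0.988 to 0.998 over genes. All values are log2 signals, the 2 tables were compared only through their own tests, a value after ± is the SD of 3 arrays for a level and the standard error for a difference, and a gene is called where the limma p adjusted over all genes is under 0.05. Array signal measures a share of the RNA of a whole culture, so fewer cells of a type and less RNA per cell cannot be told apart.

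The ribosomal protein genes stood lower in newly made than in total RNA of control NMuMG cells. Of 50 members 44 were called lower (88.0%), beside 26.8% of all genes called lower, and 1 was called higher, beside 17.2% of all genes. The median difference of the members was -1.39 on the log2 scale, a 2.61-fold lower signal, against -0.08 for all genes, and 37 members were called with a fall of at least 2-fold, as were 10.9% of all genes. In 47 members the 3 newly made and the 3 total arrays did not overlap, 46 of them with newly made RNA below, and the same held for 50.1% of all genes, 31.4% with newly made RNA below. With quantile normalization the median of the members was -0.82, against -0.18 for all genes. The counts depend on the kind of probe set, as described further on.

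The largest falls were spread over both subunits. Among large subunit genes, Rpl37a, a zinc-binding protein of the large subunit, read 10.20, 10.48 and 9.98 in arrays 1 to 3 of newly made RNA and 12.56, 12.47 and 13.28 in total RNA. Every newly made array lay more than 1 log2 unit below every total array, and the fall was 2.55 ± 0.19 (limma adjusted p = 2.33e-08). Rpl14, another large subunit protein, read 7.69, 7.82 and 7.401 against 9.84, 9.84 and 9.94 and fell by 2.24 ± 0.12 (adjusted p = 1.6e-09), the smallest adjusted p among the members. Rpl7a, which carries the 21-base run of pyrimidines shown above, read 11.52, 11.83 and 12.002 against 13.71, 13.66 and 14.35. Its fall of 2.12 ± 0.20 had an adjusted p of 1.69e-07, and array 3 of total RNA stood highest. Rpl19, which takes part in a bridge between the subunits, read 11.68, 11.67 and 11.70 against 13.44, 13.32 and 14.08, a fall of 1.93 ± 0.16 (adjusted p = 7.01e-08).

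In the stalk of the large subunit, where elongation factors bind, Rplp0 fell by 1.59 ± 0.15 and Rplp2 by 1.42 ± 0.15 (adjusted p = 2.64e-07 and 8.01e-07). Rplp0 is the base of the stalk and Rplp2 its acidic partner. Rpl12, which sits beside Rplp0 at the stalk base, went the other way. It read 9.09, 9.62 and 9.23 in newly made RNA and 8.42, 8.53 and 8.91 in total RNA, so that the groups did not overlap, and was higher by 0.69 ± 0.15 (limma adjusted p = 0.00123). It was the only member called higher, and it was measured by a single-symbol probe set with a plain ending. Of the 22 canonical large subunit members 21 were called lower, with a median of -1.48 and a range from -2.55 to 0.69.

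Of the 21 small subunit members 19 were called lower, with a median of -1.22. Rps15, which lies near the decoding centre, read 9.75, 9.26 and 9.40 in newly made RNA against 11.69, 11.56 and 12.56 in total RNA and fell by 2.46 ± 0.23 (adjusted p = 2.25e-07). Rps24, one of the genes mutated in Diamond-Blackfan anaemia, read 10.21, 10.48 and 10.44 against 12.11, 12.16 and 12.84, a fall of 1.99 ± 0.17 (adjusted p = 8.13e-08). Both sets of arrays were separate by more than 1 log2 unit. Rps6, the substrate of S6 kinase, read 7.25, 7.75 and 7.62 against 8.92, 8.91 and 9.12 and fell by 1.44 ± 0.15 (adjusted p = 4.76e-07). Rpsa, also known as the laminin receptor, fell by 1.24 ± 0.16. The 2 small subunit members that were not called were Rps25, at -0.38 ± 0.16 (adjusted p = 0.0707), and Rps16, at -0.28 ± 0.13 (adjusted p = 0.104), at a mean signal of 4.13. Rps25, a protein used in internal ribosome entry, read 10.90, 11.36 and 10.90 against 11.34, 11.36 and 11.61, so array 2 of newly made RNA reached the level of total RNA. Without that array Rps25 was called lower (adjusted p = 0.0185), and Rps16 was without array 1 of newly made RNA (0.0421).

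Of the 7 paralogues and associated genes 4 were called lower, with a median of -1.09. Rps27l, a variant of Rps27 known as a p53 target, fell by 1.09 ± 0.13 and Rps27 by 0.77 ± 0.14 (adjusted p = 2.55e-06 and 0.000223). Rpl22l1 and Rpl22 fell by 1.15 ± 0.13 and 0.98 ± 0.15, and Rps4l and Rps4x by 1.91 ± 0.24 and 1.06 ± 0.14. Rpl7 fell by 1.384 ± 0.15, whereas Rpl7l1, a relative that acts in the assembly of the large subunit, read 10.04, 10.11 and 10.02 against 9.83, 9.68 and 10.16 and stood at 0.17 ± 0.12 (adjusted p = 0.305). Array 3 of total RNA overlapped the newly made arrays of Rpl7l1. Without that array Rpl7l1 was called higher, at 0.31 ± 0.11 (adjusted p = 0.0359). These values are those of 1452049_at, at a mean signal of 9.97. Probe set 1426386_at, at 9.96 and also with a plain ending, was called lower in the fit over all probe sets. It fell by 0.59 ± 0.13 in control cells and by 0.53 ± 0.13 under TGF-b1 (limma adjusted p = 0.000941 and 0.00239). A further probe set, 1439780_at, was not called. The direction of Rpl7l1 therefore depended on the probe set, and 1426386_at was the one chosen in NM18 cells. Rpl39l, a form made in the testis, and Rpl3l, a form of heart and skeletal muscle, had low signals with means of 4.60 and 4.53 and were not called (-0.25 and -0.37; adjusted p = 0.0842 and 0.0525). Rpl3l was called without array 2 of newly made RNA (adjusted p = 0.0336). Rpl39 fell by 0.53 ± 0.15 (adjusted p = 0.00695). Rps19bp1, which binds Rps19 and is no ribosomal protein, fell by 1.26 ± 0.15. The other members called lower, not named so far, fell by between 0.72 (Rps2) and 1.89 (Rpl35).

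The members were also set beside other genes of like signal. Of 27 members with a mean signal of 12 or more, 27 were called lower with a median of -1.42, and of the 311 other genes in that range 162 were called lower (52.1%) with a median of -0.36. Array 3 of control total RNA was the highest of its group in 44 of 50 members, and its members' median was 13.50 against 13.03 and 12.91 in arrays 1 and 2. Leaving that array out added Rpl3l and Rpl39l to the members called lower and Rpl7l1 to those called higher, and no called member was lost. In that fit 24.2% of all genes were called lower and 16.7% higher.

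Under TGF-b1 the difference between newly made and total RNA was of the same size. Again 44 of 50 members were called lower, where 26.8% of all genes were, and 1 was called higher, where 18.3% of all genes were, with a median of -1.37. The groups did not overlap in 48 members, 46 of them with newly made RNA below, and in 54.8% of all genes, 33.5% below. Of the members called lower 43 were called lower in control cells too. Rpl39 was called lower only in control cells, and under TGF-b1 it stood at -0.07 ± 0.15, while Rps25 was called lower only under TGF-b1, by 0.48 ± 0.16 (adjusted p = 0.0252). That call of Rps25 was lost under median centring (adjusted p = 0.0821), with quantile normalization (0.0618) and without newly made array 1 (0.106) or 3 (0.0609) or total array 3 (0.145). The change of this difference with TGF-b1 was tested as an interaction below, and neither gene was called in it. Rpl12 was again higher, reading 9.18, 9.27 and 9.28 in newly made RNA against 8.11, 8.37 and 8.24 in total RNA, by 1.00 ± 0.15 (adjusted p = 3.61e-05). The falls of Rpl37a (2.42 ± 0.19), Rps15 (2.28 ± 0.23), Rpl7a (2.14 ± 0.20), Rpl14 (2.12 ± 0.12), Rpl19 (2.00 ± 0.16) and Rpl8 (1.90 ± 0.12) led the list. Array 3 of TGF-b1 total RNA was the highest of its group in 36 members.

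**Figure D1:**
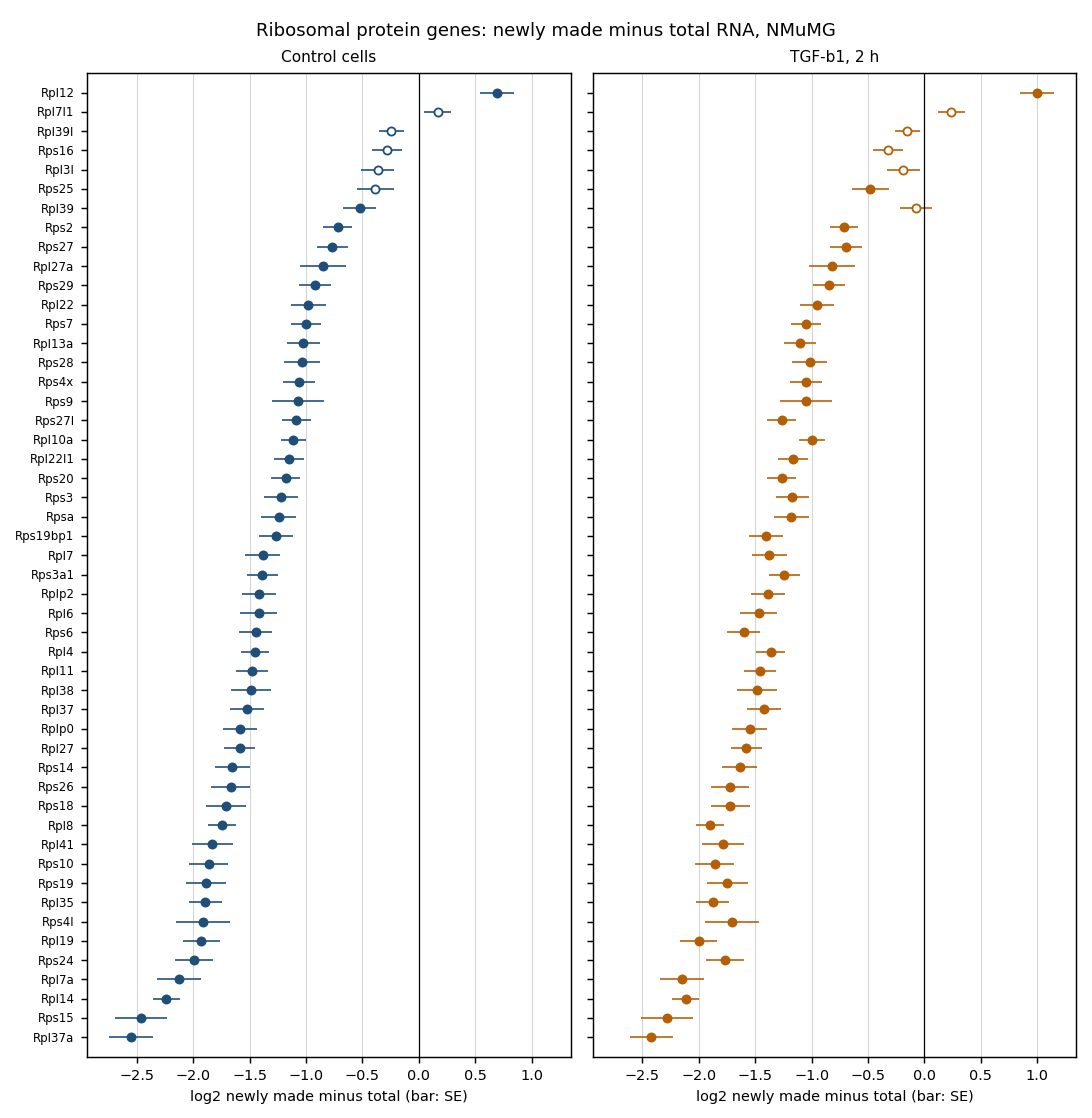
Log2 difference of newly made minus total RNA for each of 50 members in NMuMG cells, left in control cells and right under TGF-b1 for 2 h, 3 arrays a group. Points are limma estimates, bars are standard errors, filled points were called (adjusted p under 0.05), and both panels use the order of control cells. 44 members lie below 0 as filled points in each panel, and Rpl12 lies above it.

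**Figure D2:**
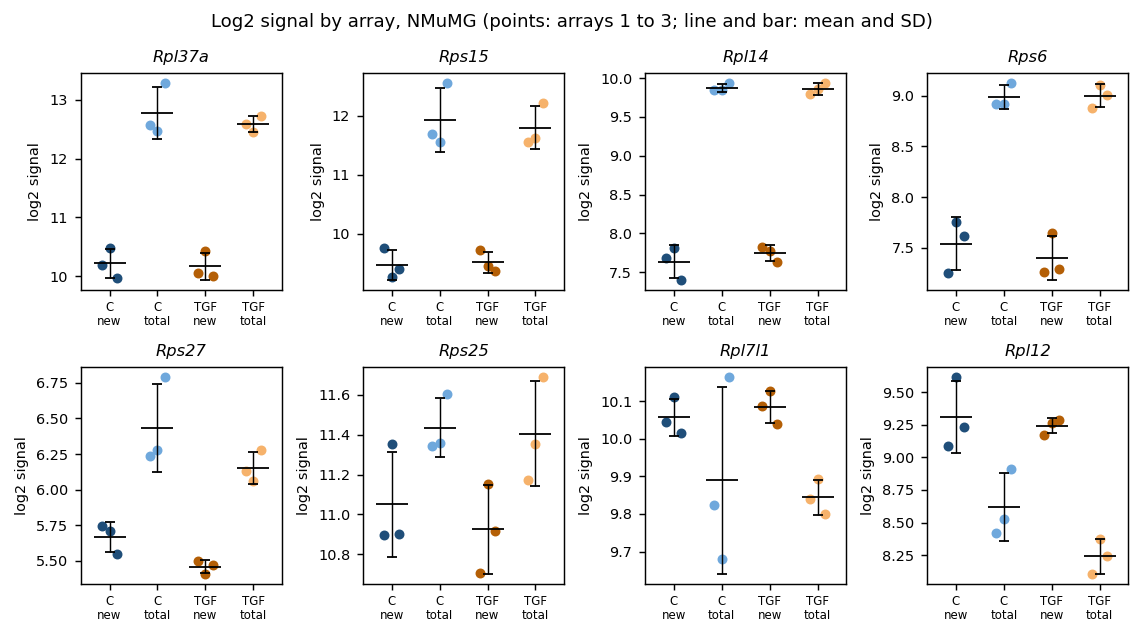
Log2 signal of 8 members on each NMuMG array, with dark points for newly made and light points for total RNA, blue for control (C) and orange for TGF-b1. The line and bar give the mean and SD of 3 arrays, and each panel has its own axis that does not start at 0. Rpl37a, Rps15, Rpl14, Rps6 and Rps27 are lower in newly made RNA without overlap, Rps25 and Rpl7l1 overlap in control cells, and Rpl12 is higher in newly made RNA.

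Different probe sets of a gene did not always give the same answer. The members had 106 probe sets in the NMuMG table, and in a fit over all probe sets 82 were called lower and 7 higher in newly made RNA of control cells. Of 71 probe sets whose names end in x_at, s_at or a_at, endings that mark probes matching several transcripts or genes, 67 were called lower with a median of -1.42. Of 35 probe sets with a plain ending 15 were called lower and 5 higher, with a median of -0.28. The share of all probe sets called in that fit, by ending or together, was not computed, so these counts stand without a baseline. In 11 genes measured by both kinds the mean of the plain probe sets was above that of the others in 9. Such an ending belonged to the chosen probe set of 34 of the 50 members, 17 with a_at, 16 with x_at and 1 with s_at. With plain probe sets alone 13 of 27 members were called lower and 5 higher, with a median of -0.38. In that fit 23.7% of all genes were called lower and 18.6% higher. How far cross-matching probes, or different stretches of the transcripts, move with the fall of the members was not tested.

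Calls in both directions were found in 4 genes in control cells. Rpl41, the shortest protein of the ribosome, was lower by 1.83 ± 0.19 and 1.06 ± 0.14 in probe sets 1422623_x_at and 1455578_x_at and higher by 0.72 ± 0.17 and 0.51 ± 0.17 in 1433530_at and 1454639_x_at. In Rps24, 4 probe sets ending in x_at fell by 1.99 to 2.15, 1455195_at rose by 1.55 ± 0.37 (adjusted p = 0.00239) and 1436500_at stood at 0.02 ± 0.14. Rps20 fell by 1.28 ± 0.14 and 1.181 ± 0.13 in 1456373_x_at and 1456436_x_at, with mean signals of 12.63 and 12.93, and rose by 0.81 ± 0.19 and 0.54 ± 0.17 in 1450417_a_at and 1421935_at, at 6.63 and 6.91. Rps9 fell by 2.42 ± 0.17 in 1433689_s_at and by 1.07 ± 0.23 in 1434624_x_at, and rose by 0.48 ± 0.13 in 1426958_at. Under TGF-b1 there were 8 genes with calls in both directions. Members whose fall rests on a plain probe set are Rpl14, Rpl19, Rplp0, Rps6, Rpsa, Rps27, Rpl27a, Rpl39, Rps4l and Rps19bp1.

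**Figure D3:**
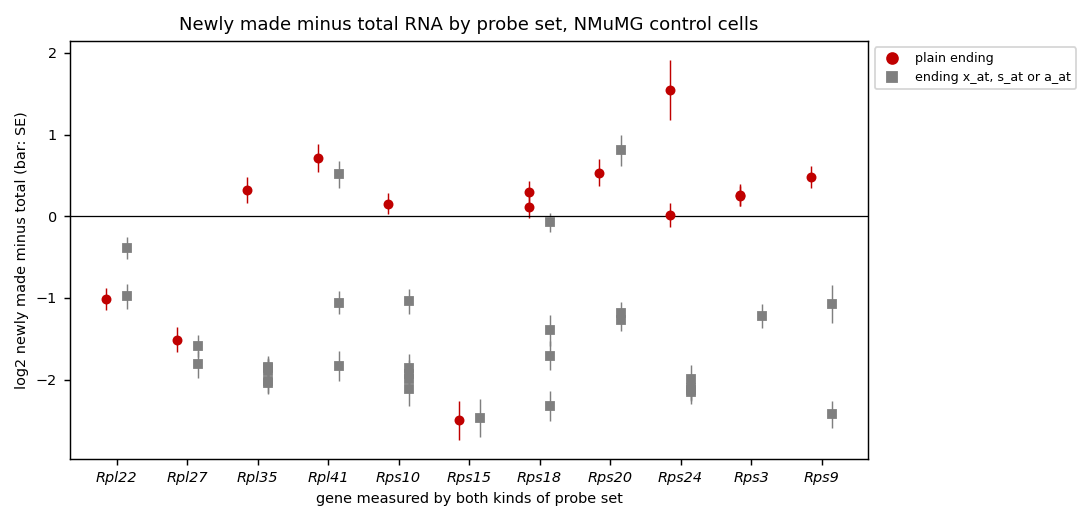
Log2 difference of newly made minus total RNA in NMuMG control cells for every probe set of the 11 members measured by both kinds of probe set. Red circles are probe sets with a plain ending, grey squares those ending in x_at, s_at or a_at, and bars are standard errors. In Rpl35, Rpl41, Rps10, Rps18, Rps20, Rps24, Rps3 and Rps9 every red circle lies above 0 while the brightest probe set, a grey square, lies below it.

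Other genes of the translation machinery were read in the same comparison, newly made against total RNA of control cells, where 26.8% of all genes were called lower and 17.2% higher. Fau, which encodes the ribosomal protein joined to a ubiquitin-like domain, fell by 2.01 ± 0.21 (adjusted p = 7.25e-07). Of 26 initiation factors 19 were called lower and 3 higher, and Eif3f, Eif3b and Eif3k, subunits of the initiation factor that binds the small subunit, fell by 2.50 ± 0.14, 1.93 ± 0.14 and 2.40 ± 0.17. Of 12 elongation factors and other TOP messenger genes 9 were lower and 1 higher. Eef2, the translocase, fell by 2.64 ± 0.22, and the RNA-binding protein gene Hnrnpa1 was higher by 1.78 ± 0.13. Of 50 ribosome biogenesis genes 34 were lower and 7 higher, with Bop1 and Nop16 falling by 2.17 ± 0.13 and 2.05 ± 0.14 and Tsr1, a factor of small subunit maturation, higher by 0.94 ± 0.12. Of 19 mTOR pathway and TOP regulators 5 were lower and 8 higher. Rictor, the defining subunit of the second mTOR complex, was higher by 2.38 ± 0.15, and the RNA-binding protein genes Tia1 and Larp4 by 1.36 ± 0.11 and 1.42 ± 0.12. The medians of these lists were -0.96, -1.03, -0.77 and -0.03 for initiation, elongation, biogenesis and regulators.

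The next comparison asked what TGF-b1 did to these genes within 2 h. In newly made RNA limma called 0 of 50 members higher and 0 lower, where 3.35% of all genes were higher and 2.79% lower, and 2 members had an unadjusted p under 0.05. In total RNA it called 0 higher and 0 lower as well, where the shares of all genes were 1.46% and 1.02%, and 1 member had an unadjusted p under 0.05. The medians of the members were -0.07 in newly made and -0.10 in total RNA, against -0.01 and -0.03 for all genes, and 39 and 46 of the 50 members lay below 0, as did 52.9% and 57.2% of all genes. Single arrays set these medians. In total RNA the median was 0.06 without array 3 of control, and in newly made RNA it was -0.013 without array 2 of control. These comparisons share no arrays with each other, though each shares its arrays with those of newly made against total RNA. The 95% intervals of single members ran from -0.66 to 0.69 in newly made and from -0.70 to 0.55 in total RNA.

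In newly made RNA the arrays of the groups did not overlap in 3 members (Rpl39, Rpl19 and Rps27), and in total RNA in 1 (Rpl12), where 17.5% and 18% of all genes did not overlap. The largest differences in newly made RNA, none of them called, were those of Rpl39, which lines the exit tunnel of the large subunit, Rps19bp1 and Rpl19. Rpl39 read 6.41, 6.51 and 6.08 in control and 6.79, 6.64 and 6.70 with TGF-b1. All TGF-b1 arrays lay above the control arrays, and the difference of 0.38 ± 0.15 had an adjusted p of 0.181. Same-numbered arrays of control and TGF-b1 deviated together within each kind of RNA, with correlations from 0.339 to 0.732 in newly made and from 0.122 to 0.407 in total RNA. Differently numbered arrays ran from -0.579 to 0.347 in newly made RNA, so the ranges overlapped there, and from -0.258 to 0.003 in total RNA. With the replicate number as a block within each kind of RNA, a fit added after seeing the data, Rpl39 was called higher (adjusted p = 0.0482). In that fit 1 of 50 members was called higher and 0 lower in newly made RNA, where 6.16% and 6.59% of all genes were, and 0 in total RNA, where 3.01% and 2.63% were. Rps19bp1 read 7.90, 8.28 and 8.02 against 7.57, 8.003 and 7.62, a difference of -0.33 ± 0.15 (adjusted p = 0.290), with overlapping groups. Rpl19 stood at -0.22 ± 0.16 (adjusted p = 0.619). In total RNA Rpl12 showed the widest gap, from 8.42, 8.53 and 8.91 to 8.11, 8.37 and 8.24, or -0.38 ± 0.15 (adjusted p = 0.361). Next came Rps27 at -0.28 ± 0.14 (adjusted p = 0.571) and Rps24 at -0.26 ± 0.17 (adjusted p = 0.773), whose groups overlapped. Rplp0, Rplp2, Rpsa and Rps6 were not called in either kind of RNA.

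Whether TGF-b1 acted differently on newly made and on total RNA was tested as an interaction. No member was called by limma (0 higher and 0 lower, where 0.011% and 0.055% of all genes were), and 1 had an unadjusted p under 0.05. That member was Rpl39, at 0.45 ± 0.20 with an adjusted p of 1. The median over the members was 0.02, beside 0.01 for all genes, and -0.13 without array 3 of control total RNA. Among related genes at 2 h, 1 of 50 ribosome biogenesis genes was lower in newly made RNA, where 2.79% of all genes were lower. In total RNA 1 of 19 regulators was lower, where 1.02% of all genes were. In either kind of RNA 0 of 26 initiation factors and 0 of 12 elongation and TOP genes were called.

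After 40 h of TGF-b1 in NM18 cells under control siRNA, 3 of 48 members were called lower (6.25%), beside 17.5% of all genes, and 0 were called higher, beside 13.2% of all genes. The share called was thus below that of all genes in both directions. Rps27l read 13.21, 13.13 and 13.19 without and 12.89, 12.83 and 12.88 with TGF-b1 and fell by 0.31 ± 0.07 (adjusted p = 0.00393). Its 3 probe sets were each called lower, by 0.27 to 0.34. Rpl12 read 9.16, 9.05 and 9.44 without and 8.84, 8.81 and 8.94 with TGF-b1 and fell by 0.35 ± 0.10 (adjusted p = 0.0223). Rps25 read 10.81, 10.49 and 10.64 against 10.47, 10.41 and 10.36 and fell by 0.24 ± 0.08 (adjusted p = 0.0433). Arrays of the groups did not overlap in these 3 genes.

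The calls of Rpl12 and Rps25 were near the threshold. Without array 3 of control siRNA Rpl12 had an adjusted p of 0.0837 and Rps25 of 0.0921, and without array 1 or 2 of control siRNA with TGF-b1 neither was called, so that Rps27l alone was left in these 3 settings. There 13.8% to 15.1% of all genes were lower. Rps25 also lost its call without array 1 of control siRNA (0.163) or array 3 of control siRNA with TGF-b1 (0.133). Rps25 was also not called under median centring (adjusted p = 0.104), with quantile normalization (0.0906) or in a fit of these groups alone. Same-numbered arrays of the NM18 groups deviated together, with correlations from 0.16 to 0.608 in 9 of 9 pairs. The NM18 counts, adjusted p values and figures nevertheless come from a fit without pairing, except where a replicate block is named. With the replicate number as a block 5 members were called lower, as were 21.6% of all genes. The added ones were Rpl14 at -0.16 ± 0.05 (adjusted p = 0.0245) and Rpl7l1 at -0.24 ± 0.06 (adjusted p = 0.00965). The members' median was -0.04, against 0.005 for all genes, and 42 of 48 lay below 0. Differences near 0 were found for Rplp0 at -0.03 ± 0.07, for Rplp2 at -0.02 ± 0.07 and for Rps6 at 0.06 ± 0.08, while Rpsa stood at -0.15 ± 0.07 (adjusted p = 0.155). For Rpl41 a pair of probe sets of lower signal, 1433530_at and 1454639_x_at, fell by 0.60 ± 0.11 and 0.42 ± 0.10 while 1422623_x_at and 1455578_x_at, with signals above 14, stood at -0.04 and -0.05.

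FoxQ1 siRNA was compared with control siRNA, both with TGF-b1. Here 5 of 48 members were called lower (10.4%), beside 8.28% of all genes, and 0 were called higher, beside 11.3% of all genes, with 0 higher at an unadjusted p under 0.05 as well. Rps25, Rps27l, Rps6, Rpl14 and Rps19 were the members called, 3 of canonical small subunit proteins, 1 of a paralogue and 1 of a large subunit protein. The members' median was -0.14, against -0.005 for all genes, and 45 of 48 lay below 0, as did 51.4% of all genes. In 15 of 48 members the arrays did not overlap, in all 15 with FoxQ1 siRNA below, and 34.7% of all genes did not overlap, 15.5% with FoxQ1 siRNA below.

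Rps27l read 12.89, 12.83 and 12.88 with control siRNA and 12.38, 12.58 and 12.50 with FoxQ1 siRNA and fell by 0.38 ± 0.07 (limma adjusted p = 0.00213). Each of its 3 probe sets fell, by 0.31 to 0.38. Rps25 read 10.47, 10.41 and 10.36 against 10.04, 9.98 and 10.05, a fall of 0.39 ± 0.08 (adjusted p = 0.00527), with FoxQ1 arrays tightly grouped below. Rps6 read 8.21, 8.19 and 8.30 against 7.92, 7.75 and 7.99 and fell by 0.35 ± 0.08 (adjusted p = 0.00759). It was not called with the mean of its probe sets (adjusted p = 0.0817), since its second probe set, at a mean signal of 5.65, stood at 0.02 ± 0.07. Rpl14 read 8.78, 8.56 and 8.89 against 8.37, 8.12 and 8.45, a fall of 0.43 ± 0.12 (adjusted p = 0.0243). Rps19, a gene of late small subunit maturation, read 13.59, 13.46 and 13.63 against 13.16, 13.33 and 13.34 and fell by 0.28 ± 0.08 (adjusted p = 0.0238). In none of these 5 did the groups overlap.

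Arrays decided some of these calls. Rpl14 and Rps19 were not called when array 1 of FoxQ1 siRNA (adjusted p = 0.0529 and 0.10), array 1 of control siRNA with TGF-b1 (0.0860 and 0.0877) or array 3 of that group (0.0961 and 0.0894) was left out, which left 3 members. In those fits 6.17% to 6.36% of all genes were lower. Rpl14 was also not called without array 2 of FoxQ1 siRNA (0.0819). Without array 2 of control siRNA with TGF-b1 7 members were called lower, as were 7.06% of all genes, with Rpl8 and Rplp2 added. Array 1 of FoxQ1 siRNA was the lowest of its group in 37 of 48 members and array 2 of control siRNA with TGF-b1 in 46. With the replicate block 10 members were called lower (12.1% of all genes), and Rpl12, Rpl37, Rpl8, Rps14 and Rpl7l1 joined, at -0.22 ± 0.06, -0.23 ± 0.06, -0.19 ± 0.06, -0.20 ± 0.06 and -0.19 ± 0.06. The common shift was smaller with quantile normalization but not with median centring. With quantile normalization the median of the members was -0.05, against 0.01 for all genes. There 6 members were called lower, as were 8.85% of all genes. With median centring the median was -0.14, against -0.01 for all genes. There 5 members were called lower, as were 8.45% of all genes. Of the 48 NM18 members 34 had a mean signal of 13 or more, where the highest value was 14.59. Those 34 members had a median of -0.13 with 1 called lower, and the 85 other genes in that range a median of -0.015 with 5 called lower and 5 higher.

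Members that stayed near 0 with FoxQ1 siRNA included Rpl6 (0.01 ± 0.07), Rpl27a (-0.015 ± 0.06), Rpl39 (-0.05 ± 0.06), Rpl39l (0.01 ± 0.06) and Rpl3l (0.10 ± 0.09), the last being the highest of all. Rplp0 stood at -0.09 ± 0.07, Rplp2 at -0.17 ± 0.07, Rpsa at -0.13 ± 0.07 and Rps4x at -0.12 ± 0.07. Between the paralogues Rps27l (called lower) and Rps27 at -0.14 ± 0.07 (adjusted p = 0.214), and Rpl22l1 at -0.14 ± 0.08 and Rpl22 at -0.17 ± 0.07, the difference was not tested. The 95% intervals of all members ran from -0.69 to 0.29, so a 2-fold change in the signal of the chosen probe set lay outside every one of them. In 34 of the 48 members that signal was 13 or more, where the highest value was 14.59. How far signals in that range follow changes in RNA was not tested.

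Against untreated control siRNA, cells with FoxQ1 siRNA and TGF-b1 had 18 of 48 members called lower (37.5%), beside 18.6% of all genes, and 0 called higher, beside 19.3%. With the replicate block 23 were called lower, as were 21.8% of all genes, and Rpl7, Rplp2, Rps10, Rps4x and Rps9 were added. Other settings lowered the count. It was 12 without array 1 of control siRNA alone or of FoxQ1 siRNA. It was 13 without array 3 of FoxQ1 siRNA or with quantile normalization, and 15 with median centring. In these settings 15.8% to 17.7% of all genes were lower. Without array 2 of FoxQ1 siRNA the count was 20, where 17.8% of all genes were lower. This comparison shares its arrays with both others and is their sum. The median was -0.17, or -0.06 under quantile normalization and -0.15 under median centring, and 46 of 48 members lay below 0. The largest falls were those of Rps27l (0.69 ± 0.07; adjusted p = 1.03e-05), Rps25 (0.63 ± 0.08), Rpl14 (0.59 ± 0.12), Rpl12 (0.57 ± 0.10), Rpl7l1 (0.42 ± 0.10) and Rps19 (0.37 ± 0.08). Rps27l went from 13.21, 13.13 and 13.19 to 12.38, 12.58 and 12.50, and Rps25 from 10.81, 10.49 and 10.64 to 10.04, 9.98 and 10.05. In both genes the arrays with control siRNA and TGF-b1 lay between those groups without overlap. Rpsa fell by 0.28 ± 0.07 (adjusted p = 0.00841), and Rps6 by 0.29 ± 0.08. All 5 members called lower when both siRNAs were compared under TGF-b1 were also called lower here, and 2 of them, Rps27l and Rps25, were called lower with TGF-b1 alone.

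**Figure D4:**
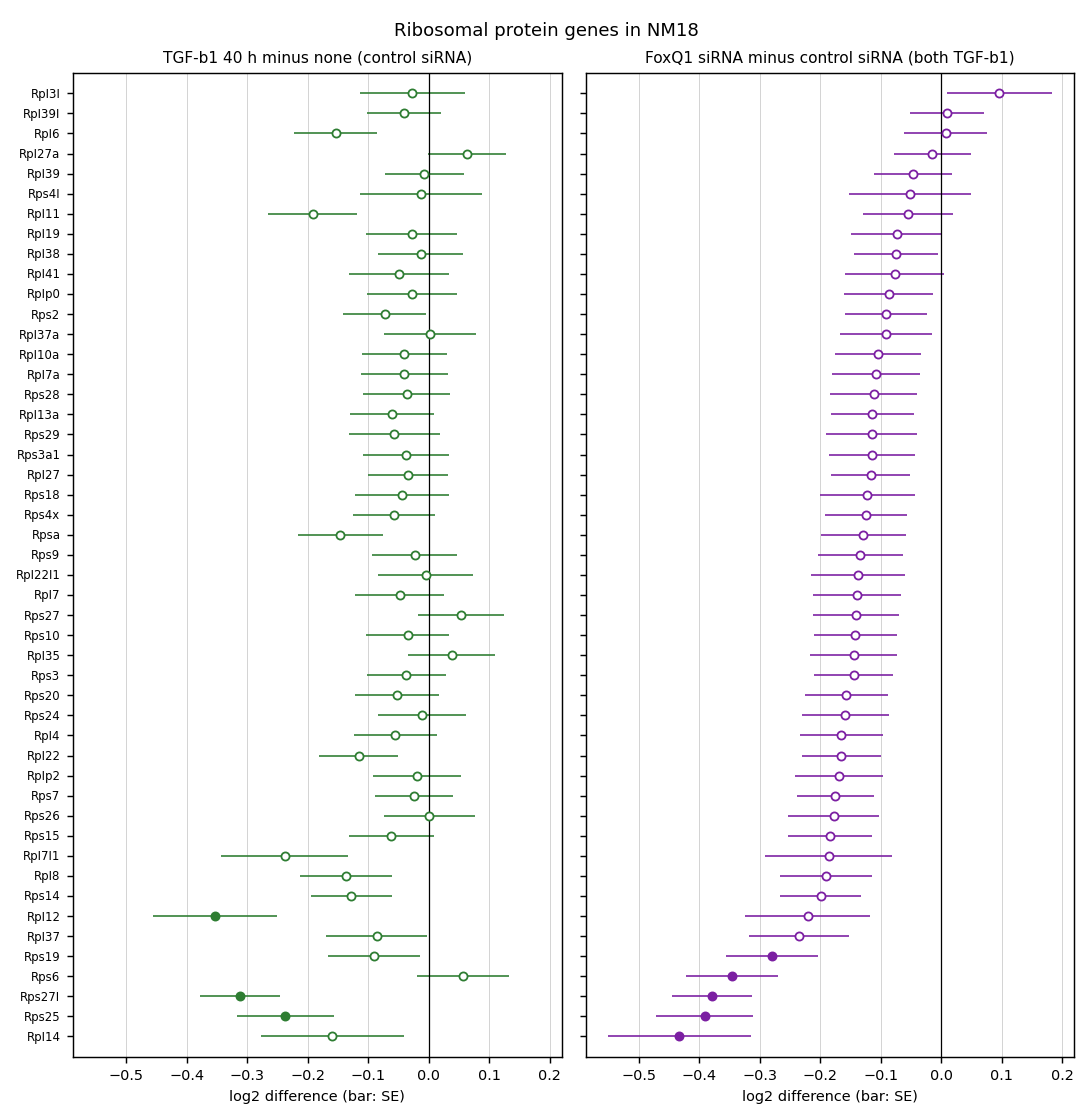
Log2 differences of 48 members in NM18 cells, left TGF-b1 for 40 h minus none under control siRNA and right FoxQ1 siRNA minus control siRNA with TGF-b1, 3 arrays a group. Points are limma estimates from the fit without a replicate block, and bars are standard errors. Filled points were called (adjusted p under 0.05), and both panels follow the order of the right panel. 3 members are filled on the left and 5 on the right, all below 0, and both panels share the control siRNA arrays with TGF-b1.

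**Figure D5:**
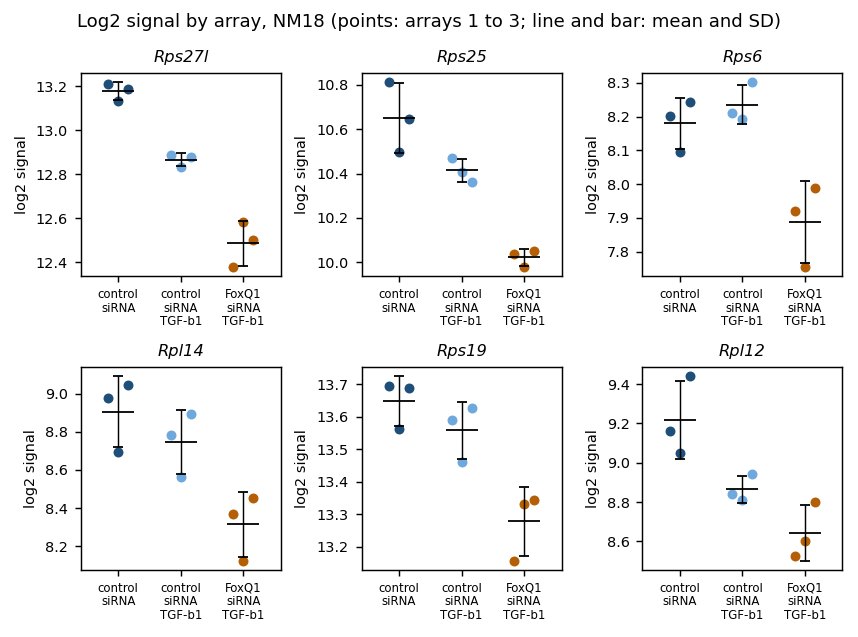
Log2 signal of 6 members on each NM18 array by group, with the mean and SD of 3 arrays. Each panel has its own axis, which does not start at 0. Rps27l and Rps25 step down from control siRNA to TGF-b1 and again to FoxQ1 siRNA with TGF-b1, Rps6, Rpl14 and Rps19 are lowest with FoxQ1 siRNA, and Rpl12 is highest in untreated cells.

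Genes that build ribosomes were read in NM18 cells too. With FoxQ1 siRNA 20 of 48 ribosome biogenesis genes were called lower and 1 higher, with a median of -0.25, and 31 were lower with the replicate block. Of all genes 8.28% were lower and 11.3% higher, and 12.1% were lower with the block. Rrp12, a factor of subunit export, fell by 1.09 ± 0.11 (adjusted p = 6.15e-05), Nop10, of the box H/ACA particle that modifies ribosomal RNA, by 0.58 ± 0.09, Nmd3, the export adaptor of the large subunit, by 0.51 ± 0.07, and Wdr75, a factor of early small subunit assembly, by 0.43 ± 0.07. Rrn3, an initiation factor of RNA polymerase I, was higher by 0.34 ± 0.08 (adjusted p = 0.00847). The count was 12 without array 1 of control siRNA with TGF-b1 and 13 without array 3 of that group or array 1 of FoxQ1 siRNA. Of all genes 6.36%, 6.33% and 6.17% were lower in these fits. With TGF-b1 alone 14 of the 48 were lower and 2 higher, where 17.5% and 13.2% of all genes were. That count was 8, 7 and 8 without array 1 or 3 of control siRNA or array 2 of control siRNA with TGF-b1. In those fits 15.5%, 14% and 15.1% of all genes were lower, so the counts were near the share of all genes. Whether this list differed from the ribosomal protein genes was not tested.

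The remaining lists were read with FoxQ1 siRNA too, where 8.28% of all genes were lower. Of 25 initiation factors 3 were lower, namely Eif4g2 (0.77 ± 0.07), Eif6 (0.42 ± 0.10), which keeps the subunits apart, and Eif3i (0.30 ± 0.08). Of 12 elongation and TOP genes 1, Nap1l1, was lower by 0.27 ± 0.06. Of 17 regulators 4 were lower, namely Larp4b (0.40 ± 0.06), Eif4ebp2 (0.52 ± 0.10), a repressor of cap-dependent initiation under mTOR, Rheb (0.28 ± 0.07), the activator of mTOR, and Larp1 (0.19 ± 0.06). Fau stood at -0.15 and was not called. With TGF-b1 alone 8 of 25 initiation factors were lower and 0 higher, where 17.5% of all genes were lower and 13.2% higher. Of 12 elongation and TOP genes 3 were lower, and of 17 regulators 1 was lower and 2 higher. Eif4e, the cap-binding protein, fell by 0.43 ± 0.08 (adjusted p = 0.00143).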

How the data were processed

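The deposited values were log2 probe set signals made by the authors for 12 NMuMG and 9 NM18 arrays. The log2 scale was inferred from the values. Background correction and normalization are not given in the sources used here. The submitters' processing notes list affy 1.18.2, with no role given. Per the labels' protocols, NMuMG RNA was amplified with a kit of 2 cycles and NM18 RNA was labelled with a 3' in vitro transcription kit. Symbols came from the platform annotation. Groups of each table were fitted together with limma 3.58.1 in R 4.3.3 (lmFit, eBayes), two-sided, with Benjamini-Hochberg adjustment over all genes. The main fit holds the groups only, with no replicate block. The fit was tested on simulated data.

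Members, related gene lists and tests were chosen with earlier results of these data known. Any member could be named. Full values went to the 6 called members with the largest change in each direction, or the 3 largest where fewer than 3 were called, and to fixed members (stalk proteins, Rpsa, Rps6, paralogue pairs, Rps19bp1). Whether newly made and total RNA of the same number came from the same culture is not stated. Replicates are described as biological. In NM18 a pairing by number rests on the correlations given above, and only the blocked fits use it. In NMuMG same-numbered arrays of newly made and total RNA correlated from -0.182 to 0.315 and were not taken as pairs, but within each kind of RNA control and TGF-b1 arrays of the same number correlated at 0.122 or more in every pair, and the blocked values are given beside that comparison. Control array 3 and TGF-b1 array 2 of newly made RNA, which differ in number, correlated at 0.347. With 3 arrays a group the number of arrays limits the precision.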

Additional observations from a re-analysis of the deposited data

How the results depend on the processing

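The alternatives were another scaling (quantile normalization, median centring), a replicate block, a fit on the compared groups only, genes above the median signal, the mean of all probe sets, plain probe sets only, and each array left out. The replicate block within each kind of RNA was chosen after seeing the data.

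With plain probe sets alone, 27 NMuMG and 24 NM18 members remained. The difference of newly made from total RNA then had 13 members called lower and 5 higher with a median of -0.385 in control cells, and 13 lower and 8 higher with a median of -0.324 under TGF-b1, where 23.7% of all genes were lower in both and 18.6% and 19.7% higher. Its direction turned in control cells for Rpl35 (0.322), Rpl41 (0.716), Rps10 (0.155), Rps18 (0.301), Rps20 (0.535), Rps24 (1.546), Rps3 (0.258) and Rps9 (0.477), and under TGF-b1 for the same genes (0.552, 0.991, 0.561, 0.263, 0.55, 1.941, 0.359 and 0.916). The NM18 counts of lower members were then 5 with TGF-b1 (Rpl41, Rps10 and Rps9 were added), 3 with FoxQ1 siRNA and 11 for FoxQ1 siRNA with TGF-b1 against untreated cells, where 16.2%, 7.99% and 17.6% of all genes were lower. The cause was not tested.

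Quantile normalization gave member medians of -0.82 and -0.901 for newly made against total RNA in control and TGF-b1-treated cells, with all genes at -0.176 and -0.189, and of -0.046 and -0.061 for FoxQ1 siRNA against control siRNA and against untreated cells. Median centring moved the median of all genes in newly made against total RNA from -0.082 to 0.027 in control cells and to 0.038 under TGF-b1. The shares of all genes called higher and lower were then 21% and 22.2% in control cells and 22.1% and 21.9% under TGF-b1, where 2 members were called higher (Rpl7l1 was added). For FoxQ1 siRNA against control siRNA and against untreated cells median centring gave member medians of -0.143 and -0.154. For newly made against total RNA the mean of all probe sets gave a median of -1.215 under TGF-b1.

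With the replicate block 5 members were lower with TGF-b1 in NM18 cells and 10 with FoxQ1 siRNA, and 1 (Rpl39) was higher with TGF-b1 in newly made RNA when blocked within each kind of RNA. Of all genes 21.6% and 12.1% were lower in these NM18 fits, and 6.16% were higher in that NMuMG fit. Across all samples the replicate block left 0 members called with TGF-b1 in NMuMG cells, and 47 and 45 lower in newly made against total RNA. With 1 array left out, 1 to 2 members were higher in newly made RNA of control cells, as were 15.5% to 18.1% of all genes. With TGF-b1 in NM18 cells 1 to 4 were lower, where 13.8% to 16.8% of all genes were. With FoxQ1 siRNA 3 to 7 were lower, where 6.17% to 8% of all genes were. For FoxQ1 siRNA with TGF-b1 against untreated cells 12 to 20 were lower, where 15.8% to 18% of all genes were.

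Of the called members' values over all alternatives, 596 of 605 kept their call in control cells and 590 of 605 under TGF-b1 for newly made against total RNA, 27 of 38 for TGF-b1 in NM18 cells, 55 of 63 for FoxQ1 siRNA and 188 of 225 for FoxQ1 siRNA with TGF-b1 against untreated cells. For newly made against total RNA 8 values reversed direction in control cells and 8 under TGF-b1, all with plain probe sets alone. Called members without a plain probe set have no value in that alternative. The pooled counts therefore say little about the choice of probe set.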
